A study of Mus musculus with 6 samples.

Results

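The mitochondrial genome of the mouse carries 13 protein-coding genes, and 6 of them were described here: mt-Cytb of respiratory complex III, mt-Co1, mt-Co2 and mt-Co3 of complex IV, and mt-Atp6 and mt-Atp8 of complex V. They were taken by gene symbol from the 32285 genes of the files, and the other 7 mitochondrial mRNAs, all of complex I, served as the comparison. Single-cell RNA-seq had been performed on islets of WT mice and of mice lacking 14-3-3ζ, the product of Ywhaz, in β cells. There were 3 WT and 3 KO libraries, from as many mice of each genotype, aged 12 to 14 weeks, with the strain written C57/BL6 in the labels and C57BL/6J in the methods of the study. KO mice came from crossing Ins1-CreThor, a Cre under control of an insulin gene and so directed at β cells, with a floxed Ywhaz allele. The WT controls were littermates that carried the Cre as well, so both genotypes shared it, and islets were kept overnight before dispersal and removal of dead cells. The labels do not tie each library to a mouse, and the p-values below measure the spread between these libraries.

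Cytochrome b is the catalytic core of complex III that passes electrons from ubiquinol toward cytochrome c. Cytochrome c oxidase, complex IV, reduces oxygen through its core subunits COX1, COX2 and COX3, and the ATP synthase, complex V, lets protons pass through subunit a (mt-Atp6), next to the small subunit A6L (mt-Atp8). In β cells, ATP made this way closes K-ATP channels and triggers insulin release. These mRNAs are cut from long transcripts of the whole mitochondrial DNA strand, mostly at the tRNAs that lie between them, so that processing and stability set their levels as well as transcription does. mt-Atp8 and mt-Atp6 are kept on a single bicistronic mRNA, and some reading frames gain a complete stop codon only when the tail of adenines is added.

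All 6 genes lie on the plus strand of the mitochondrial chromosome (GENCODE vM21 transcripts, GRCm38, the build called mm10 in the submitters' processing notes). mt-Co1 spans chrM:5328-6872, mt-Co2 chrM:7013-7696, mt-Atp8 chrM:7766-7969, mt-Atp6 chrM:7927-8607, mt-Co3 chrM:8607-9390 and mt-Cytb chrM:14145-15288, each as a single exon. Because the kit captured 3′ ends, the last 30 annotated bases of each transcript are shown, with the stop codon, or the lone T that becomes one on polyadenylation, in capitals.
mt-Co1: gaggaaccaacctatgtaaaagtaaaaTAA
mt-Co2: ttcgaaaactgatctgcttcaataattTAA
mt-Co3: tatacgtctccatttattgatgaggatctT
mt-Cytb: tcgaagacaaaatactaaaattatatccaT
mt-Atp6: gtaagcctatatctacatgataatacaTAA
mt-Atp8: tatttgcctcattcattaccccaacaaTAA
Of the 6 transcripts, mt-Co1, mt-Co2, mt-Atp6 and mt-Atp8 end in a full TAA, whereas mt-Co3 (784 bases) and mt-Cytb (1144 bases) each run 1 base past whole codons. The 43 bases that mt-Atp8 and mt-Atp6 have in common are shown because a 3′ read from their joint mRNA falls at the mt-Atp6 end, with the mt-Atp6 start codon and the mt-Atp8 stop codon in capitals.
mt-Atp8 and mt-Atp6 overlap, chrM:7927-7969: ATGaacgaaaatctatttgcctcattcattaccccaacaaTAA
mt-Atp6 and mt-Co3 share a single base, and 4754 bases separate mt-Co3 from mt-Cytb. Near-identical nuclear copies exist for 4 of the members. In windows of 50 bases, 100% of mt-Co2, 99.9% of mt-Co3, 99.5% of mt-Atp6 and 51.1% of mt-Co1 recurred exactly in a transcript of another annotated gene, such as Gm28661, Gm28437 and Gm10925, and no window of mt-Cytb or mt-Atp8 did. None of those other genes is in the files' gene list and how reads shared with them were treated is not given in the sources used here, so the levels of these 4 genes are uncertain to that extent.

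Each library held 74083947 to 98294915 UMIs, where 1 UMI stands for 1 captured molecule, and 8.23 to 10.4% of them came from mitochondrial (mt-) genes. Among 43445 barcodes, pairs of libraries shared 7 to 27 barcode sequences. Barcodes with at least 500 detected genes were split at 10% mt- UMIs, called doublets were left out, and clusters were named from their markers. At or under 10% the β cell-like class held 800 to 1208 barcodes per library, the α class 53 to 244, the δ class 148 to 221 and a class led by Ppy 57 to 266. The endothelial class held 126 to 310, the stellate class 23 to 103, the macrophage class 46 to 147, the B cell-like class 13 to 1687 and the T cell-like class 10 to 1375. Over 10% the β, α, δ and Ppy-led classes were large enough to use. The Ppy-led class carried more Ins2 than Ppy, with Ins2 at 21.6% of its UMIs, so it is named only by its leading gene. The δ class likewise carried more Ins2 than Sst, with Ins2 at 8.72% of its UMIs. Its name rests on its markers and does not mean that it was free of β cell RNA. With every library brought to the same total by TMM factors (CPM), Ywhaz stood at 144, 162 and 154 CPM in WT and at 18.3, 17.7 and 17.9 CPM in KO β cell-like barcodes with all KO cells kept (edgeR log2 fold change -3.09, SE 0.0747, adjusted p = 5.87e-07). A 3′ tag need not lie in the deleted exon, so this level does not check the deletion itself. Ywhaz was also lower in the Ppy-led class, at 139, 162 and 142 CPM in WT and 41.4, 60.5 and 51.0 CPM in KO. Ins2, the hormone RNA of β cells, made up 2.66 to 11.0% of the UMIs of the other non-β classes on average, with 4.03 to 27.2% in T cell-like barcodes, and how much of their mt- RNA likewise came from outside the cell was not tested.

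The 6 mRNAs supplied 73.5% ± 1.72 of the mt- UMIs of β cell-like barcodes (SD, n = 6 libraries of both genotypes), and 5 of them were the most abundant mitochondrial mRNAs. mt-Co3, the third core subunit of cytochrome c oxidase, led with 18.6, 17.9 and 18.3% of the mt- UMIs in WT and 18.4, 18.0 and 18.8% in KO. It stood above mt-Co1 in every library and the ranges did not overlap. mt-Co1, which encodes the subunit with the oxygen-reducing site, held 17.0, 15.1 and 16.2% in WT and 14.8, 11.7 and 15.5% in KO. KO library 2 was far below the other 5 for this mRNA, and mt-Co1 had by far the widest spread of the members, 15.1% ± 1.85. mt-Co2, the subunit that takes electrons from cytochrome c, held 14.2, 13.7 and 14.3% in WT and 14.6, 14.5 and 14.8% in KO. mt-Atp6 held 14.1, 13.7 and 13.4% in WT and 14.3, 14.5 and 13.9% in KO. The ranges of mt-Co1 and mt-Co2 overlapped, as did those of mt-Co2 and mt-Atp6, and each order was kept in 5 of 6 libraries. mt-Cytb held 11.5, 11.3 and 11.2% in WT and 11.6, 12.1 and 10.9% in KO, below mt-Atp6 in every library and above mt-Nd4, the leading complex I mRNA at 9.01% ± 0.412. mt-Atp8, the shortest member with 204 bases, held only 0.302, 0.247 and 0.261% in WT and 0.400, 0.277 and 0.237% in KO. Among the 13 mRNAs only mt-Nd6 was lower, and KO library 1 was highest. These are 3′ tag counts with no scaling for length, so the order is that of captured molecules.

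mt-Atp8 was counted far less often than mt-Atp6 although both reading frames are carried by the same mRNA. There were 2.13, 1.81 and 1.94 mt-Atp8 UMIs per 100 mt-Atp6 UMIs in WT and 2.80, 1.91 and 1.70 in KO β cell-like barcodes. KO library 1 was the highest and the other 5 lay within 1.70 to 2.13. The mean ratio was 1.41 in α cell-like and 2.32 in endothelial-like barcodes.

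Mitochondrial content was examined next, since barcodes with over 10% mt- UMIs are usually removed from such analyses. Over 10%, the 6 mRNAs of β cell-like barcodes together held 73.9% ± 1.13 of the mt- UMIs, near their share at or under 10%, but the order of their means changed. mt-Co3 led with 19.1% ± 0.363, followed by mt-Co2 at 14.8% ± 0.383, mt-Atp6 at 14.8% ± 0.618 and mt-Co1 at 14.1% ± 1.81, and the last 3 overlapped. The mean of mt-Co1 was second at or under 10% and stood below those of mt-Co2 and mt-Atp6 here, but KO library 2 weighed on it: without that library mt-Co1 stood at 14.7%, above mt-Atp6 at 14.6% and just under mt-Co2 at 14.8%. In WT libraries 1 and 3 mt-Co1 was above both. It held 15.9, 14.0 and 15.1% in WT and 13.9, 10.7 and 14.9% in KO, lower than in the other band of its own library in 6 of 6 libraries, by 0.662 to 1.20 percentage points.

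**Figure D1:**
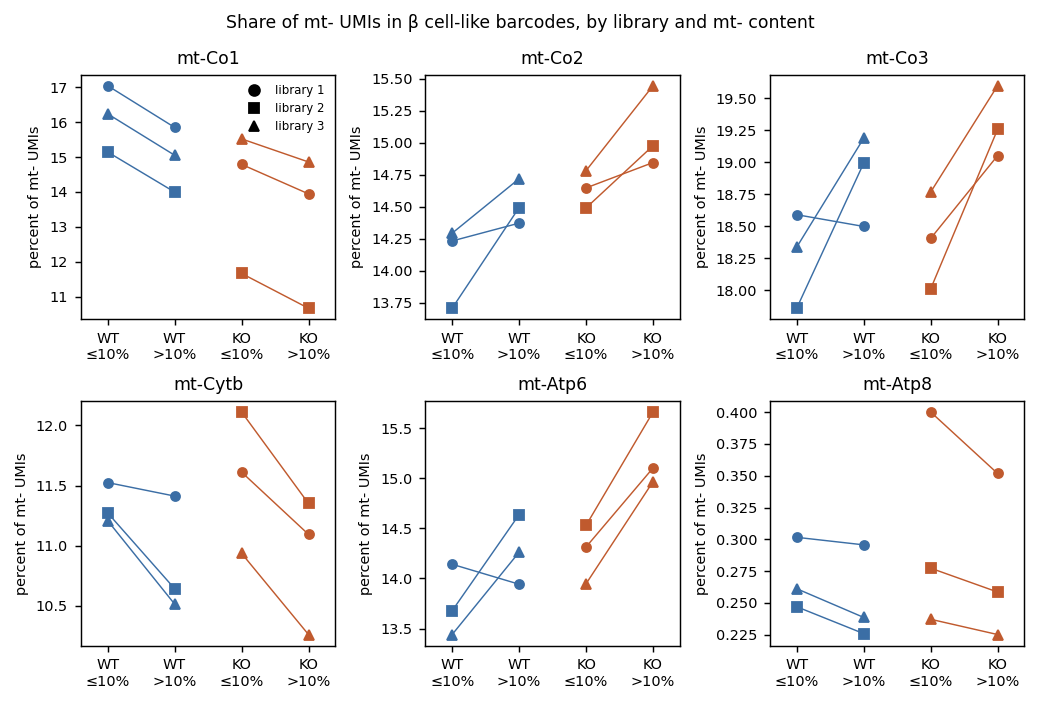
Share of each mRNA among mt- UMIs in β cell-like barcodes, in percent on the vertical axes, at or under 10% and over 10% mt- UMIs, with 1 line per library (blue WT, orange KO; the shape marks the library number). The vertical axes do not start at 0; mt-Co1, mt-Cytb and mt-Atp8 lines go down in all 6 libraries, mt-Co2 lines go up, and WT library 1 is the only one in which mt-Co3 and mt-Atp6 go down.

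Within libraries, the share of mt-Co1 differed between bands by -1.01 ± 0.216 percentage points in β cell-like barcodes and that of mt-Cytb by -0.57 ± 0.236 (mean ± SD, n = 6), both lower over 10% in 6 of 6 libraries. mt-Atp8 differed by -0.021 ± 0.015, also lower in 6 of 6, while mt-Co2 was higher over 10% in 6 of 6 libraries by 0.45 ± 0.253. Each of these had an exact sign-flip permutation p = 0.03125, the smallest that 6 libraries can give, and an adjusted p of 0.075 over the 24 tests of members and classes. mt-Co3 and mt-Atp6 were higher by 0.77 ± 0.475 and 0.755 ± 0.484 in 5 of 6 libraries, with WT library 1 at -0.092 and -0.199 (exact permutation p = 0.0625, adjusted 0.0938). None of the 24 tests therefore passed correction. At this smallest p, the adjusted value depends on how many of the tests reach it. The outcome thus does not rank these differences against the class comparisons below. Depth moved with the band, with a median of 22469 to 41666.5 UMIs per barcode at or under 10% and 7096.5 to 17744.5 over it, and its part in these differences was not tested.

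The same sign was seen for mt-Co1 in each endocrine class, though with smaller differences. mt-Co1 was lower over 10% by 0.37 percentage points in α, 0.47 in δ and 0.67 in Ppy-led barcodes, in 6 of 6 libraries each. The other members were less uniform. mt-Co2 was higher over 10% in α cell-like barcodes in 6 of 6 libraries (0.36 percentage points) but in 3 of 6 in both δ and Ppy-led barcodes. mt-Cytb was lower by 0.89 in Ppy-led barcodes in 6 of 6 libraries, and mt-Co3 was higher there by 0.96 in 5 of 6. Counted over the 4 classes, 10 of 24 differences had 1 sign in all libraries, and 18 of 24 when WT library 1 was left out. A single sign was not particular to the members. In β cell-like barcodes mt-Nd4l and mt-Nd5 of complex I were lower over 10% in 6 of 6 libraries and mt-Nd3 was higher. The signs of mt-Nd1, mt-Nd2, mt-Nd4 and mt-Nd6 were mixed there. Of the barcodes over 10%, 37.8 to 60.4% per library took no class and were not used in these values.

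Divided more finely, the share of mt-Co1 in β cell-like barcodes went from 18.4% ± 2.71 at 1 to 2% mt- UMIs through 15.2% ± 1.96 at 2 to 5%, 14.8% ± 1.71 at 5 to 10%, 14.6% ± 1.83 at 10 to 20% and 13.8% ± 1.97 at 20 to 40%, to 12.7% ± 1.67 at 40 to 60%. The means became lower at every step, but the SD between libraries was larger than most of the steps. That SD includes lasting differences between libraries and does not measure the change within each library, and the steps were not tested. mt-Co2 went from 14.2% to 15.5% between the first and the last of these bins, and mt-Atp6 and mt-Co3, lowest at 2 to 5% with 13.8% and 18.3%, reached 15.7% and 20.2% at 40 to 60%. mt-Cytb was at 11.5% at 2 to 5% and at 10.3% at 40 to 60%. The smallest bin held 27 barcodes in a library, and the median depth of these bins went from 38010 to 4989 UMIs.

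**Figure D2:**
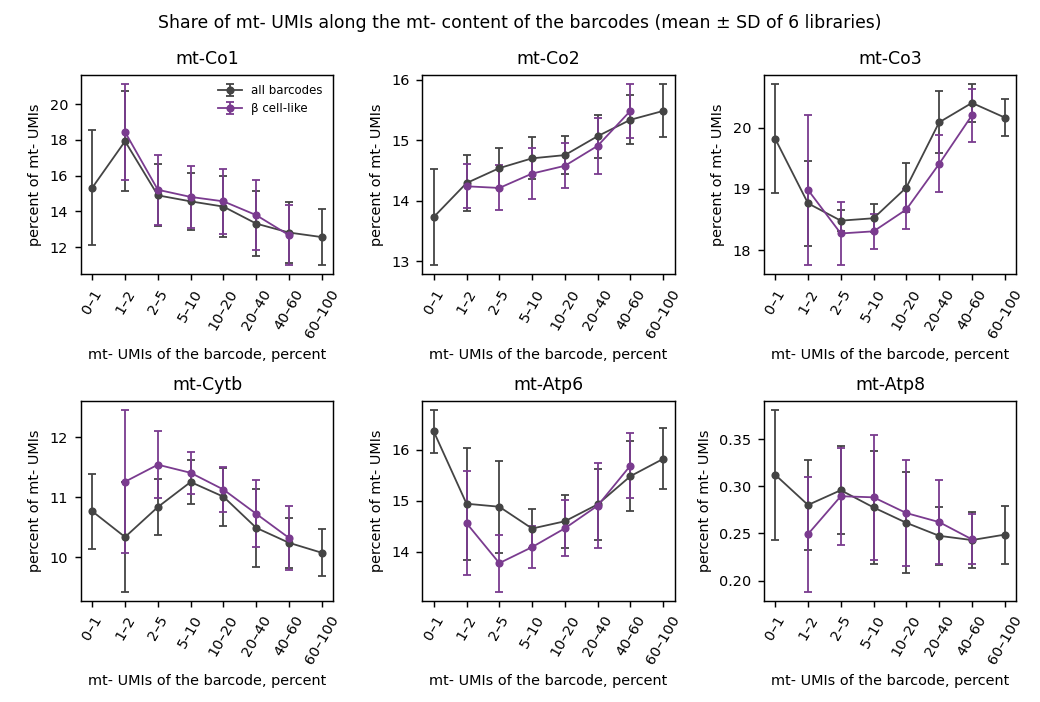
Share of each mRNA among mt- UMIs, in percent, against the mt- content of the barcodes in bins, as the mean ± SD of 6 libraries for all barcodes (grey) and β cell-like barcodes (purple). The vertical axes do not start at 0; mt-Co1 is at 18.4% at 1 to 2% mt- content and 12.7% at 40 to 60% in β cell-like barcodes, while mt-Co2 goes from 14.2% to 15.5%.

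Cell classes at or under 10% were compared to learn whether the balance of these mRNAs differed between islet cell types. As a percent of all UMIs, the 6 mRNAs together reached 4.16 ± 0.177 in δ, 4.09 ± 0.302 in α, 3.97 ± 0.182 in Ppy-led and 3.57 ± 0.123 in β cell-like barcodes. The Ppy-led class was above the β class in every library without overlap, whereas the ranges of δ, α and Ppy-led barcodes overlapped. B cell-like barcodes followed with 3.41 ± 0.634, T cell-like with 2.75 ± 0.433, macrophage-like with 2.62 ± 0.247, stellate-like with 2.28 ± 0.471 and endothelial-like with 1.81 ± 0.131, each overlapping its neighbour. Ins2 alone made up 34.4% of all UMIs in β, 21.6% in Ppy-led, 8.72% in δ and 2.88% in α cell-like barcodes on average. A large hormone share lowers the percent of every other RNA, and its part in this order was not tested. Fewer mitochondria and less RNA per mitochondrion cannot be told apart here either.

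The share of each member among mt- UMIs was then set against that in β cell-like barcodes of the same library, which removes the difference in total. Of 48 comparisons, 33 had the same sign in 6 of 6 libraries and passed correction, all at an exact sign-flip permutation p = 0.03125 and an adjusted p of 0.0455. With 1 library left out no comparison can go below 0.0625, and 33 to 37 of the 48 then kept a single sign. The β class is common to all 8 contrasts, so they are not independent. Such differences were not particular to the members: mt-Nd4 of complex I was below β cell-like barcodes in 6 of 6 libraries in all 8 classes. All 8 classes differed for mt-Atp6, 6 for mt-Co3 and for mt-Cytb, 5 for mt-Co2, and 4 for mt-Co1 and for mt-Atp8. With mt-Co1 left out of the mt- total, mt-Atp6 no longer passed in α, δ and endothelial-like barcodes (adjusted p = 0.0758, exact sign-flip permutation).

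mt-Atp6, subunit a of the ATP synthase, set the lymphoid classes apart. T cell-like barcodes held 20.1, 18.6 and 21.1% in WT and 20.2, 20.2 and 18.9% in KO, 5.84 ± 1.00 percentage points above β cell-like barcodes in 6 of 6 libraries. B cell-like barcodes held 19.4, 17.6 and 19.1% in WT and 20.4, 19.0 and 19.2% in KO, 5.12 ± 0.813 above. Neither range overlapped that of β cell-like barcodes. Macrophage-like barcodes were 2.91 ± 0.497 above and stellate-like barcodes 2.16 ± 1.19 above, the endocrine classes were 0.44 to 0.71 above, and endothelial-like barcodes alone were below, by 1.06 ± 0.829, a difference that no longer passed without doublet calls. The T cell-like class held 10 barcodes in its smallest library and the B cell-like class 13.

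mt-Co1 behaved in the opposite way in endothelial-like barcodes. It held 22.8, 18.6 and 18.3% there in WT and 21.5, 13.1 and 16.4% in KO, 3.39 ± 2.39 percentage points above β cell-like barcodes in 6 of 6 libraries, with the lowest value again in KO library 2. mt-Cytb was 3.28 ± 0.708, mt-Co3 2.66 ± 0.752 and mt-Co2 1.41 ± 0.560 percentage points below β cell-like barcodes in 6 of 6 libraries, and the 6 mRNAs together held 68.5% of the mt- UMIs, the lowest mean of the 9 classes. In stellate-like barcodes mt-Co1 was instead 2.98 ± 1.43 below.

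In α cell-like barcodes the complex IV mRNAs were shifted against each other. mt-Co3 held 21.7, 21.2 and 21.1% in WT and 21.4, 20.5 and 21.7% in KO, 2.93 ± 0.309 percentage points above β cell-like barcodes in 6 of 6 libraries, without overlap. mt-Co1 was 2.14 ± 1.15 below with 12.9%, mt-Cytb 1.13 ± 0.178 below and mt-Atp8 0.079 ± 0.046 below with 0.208%, each in 6 of 6 libraries, and mt-Co2 did not pass the test (5 of 6 libraries above, adjusted p = 0.174, exact permutation). mt-Cytb, the complex III mRNA, was lower than in β cell-like barcodes in every class that passed except the Ppy-led one, which was 0.30 ± 0.162 above, but -0.0845 and not past the threshold as a mean over cells. Its shares were 8.39% in macrophage-like, 8.90% in B cell-like and 9.08% in T cell-like barcodes, beside 11.4% in β cell-like barcodes. δ and Ppy-led barcodes were nearest to β cell-like ones, with their widest difference 0.82 percentage points, that of mt-Co2 in Ppy-led barcodes. Both classes carried more Ins2 than the hormone RNA that leads them, and the part of this in their nearness was not tested.

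**Figure D3:**
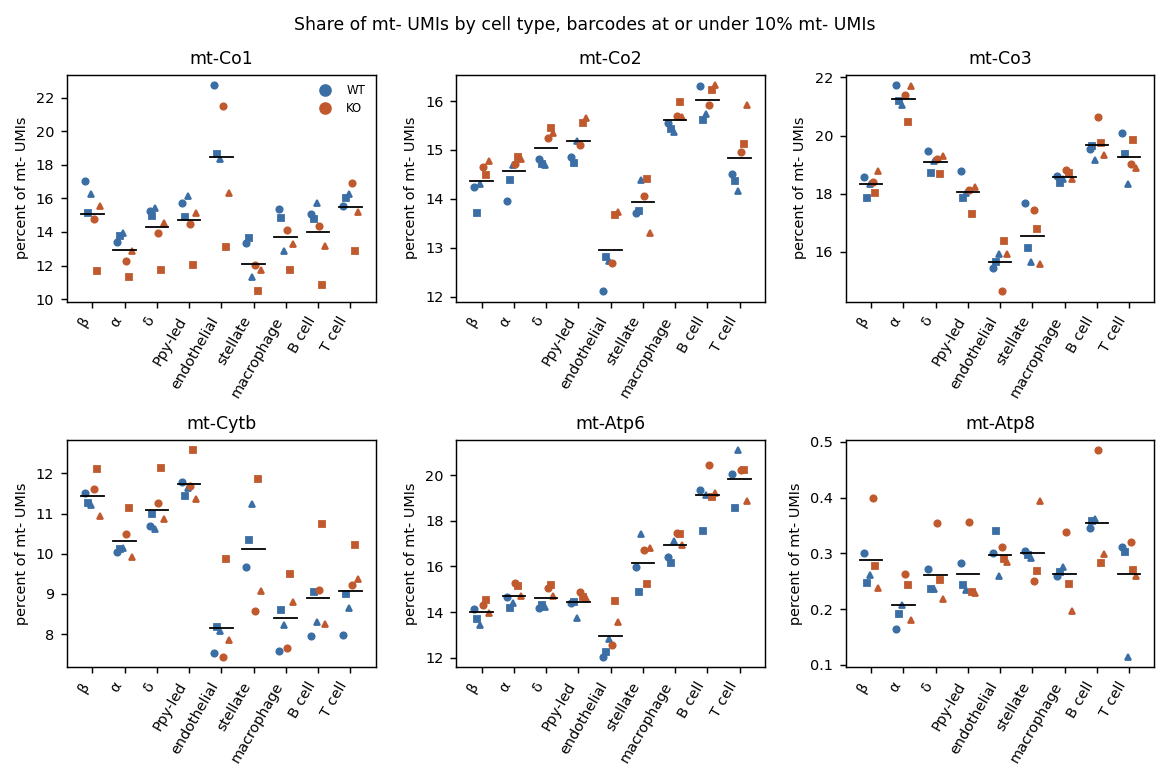
Share of each mRNA among mt- UMIs, in percent, in 9 classes of barcodes at or under 10% mt- UMIs, with 1 point per library (blue WT, orange KO; circle, square and triangle are libraries 1, 2 and 3) and a bar at the mean of 6 libraries. The vertical axes do not start at 0; mt-Atp6 is highest in B and T cell-like barcodes, mt-Co3 in α cell-like barcodes at 20.5 to 21.7%, and the KO square is lowest for mt-Co1 in every class.

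The comparison of KO with WT asked whether loss of 14-3-3ζ in β cells went with a different balance of these mRNAs. For β cell-like barcodes, those KO cells in which a Ywhaz UMI remained were left out. At or under 10% this kept 710, 686 and 634 of 1208, 997 and 1104 KO barcodes, while all WT barcodes stayed. The median depth of the kept KO barcodes was 27147.5, 21809.5 and 28539 UMIs, beside 29469, 22469 and 30512 before. In 13 sets, the 9 classes at or under 10% and the 4 over it, the mean share of mt-Co1 was lower in KO than in WT in all 13, mt-Co2 and mt-Atp6 were higher in 12, mt-Atp8 in 11, mt-Cytb in 10 and mt-Co3 in 8. All sets come from the same 6 libraries, so these counts are not independent, and the Cre was not directed at the non-β classes. The 3 WT and 3 KO values did not overlap in 22 of the 78 comparisons, beside 22.5% of the comparisons over all 13 mitochondrial mRNAs and 17.6% over the complex I mRNAs. All 3 same-numbered pairs moved the same way in 39 of 78, 29 higher and 10 lower in KO, beside 40.2% over all 13 mRNAs and 31.9% over the complex I mRNAs. With 3 against 3 libraries the exact permutation test cannot go below p = 0.1, and the smallest adjusted p was 0.355.

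The mt-Co1 share of β cell-like barcodes averaged 16.1% ± 0.953 in WT and 14.0% ± 2.11 in KO (n = 3 each), a difference of -2.11 percentage points with overlapping ranges (exact permutation p = 0.2). In α cell-like barcodes it held 13.4, 13.8 and 13.9% in WT and 12.3, 11.3 and 12.9% in KO. In δ cell-like barcodes it held 15.2, 14.9 and 15.4% in WT and 14.0, 11.7 and 14.6% in KO. Neither of these overlapped, with differences of -1.55 and -1.79 (exact permutation p = 0.1, the smallest possible). KO library 2 had the lowest mt-Co1 share of the 6 libraries in 13 of 13 sets and the highest mt-Cytb share in 12 of 13. Without it, the KO mean of mt-Co1 was lower than the WT mean in 12 of 13 sets, the difference in β cell-like barcodes was -0.905 at or under 10% and -0.736 over it, and the median over the sets went from -1.79 to -0.943. KO library 2 also had the most UMIs in all and the lowest median depth in β cell-like barcodes at or under 10%, and the part of this in its mt-Co1 share was not tested. In the same way KO library 1 had the highest mt-Atp8 share in 11 of 13 sets, and without it mt-Atp8 was lower in KO in 9 of 13.

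**Figure D4:**
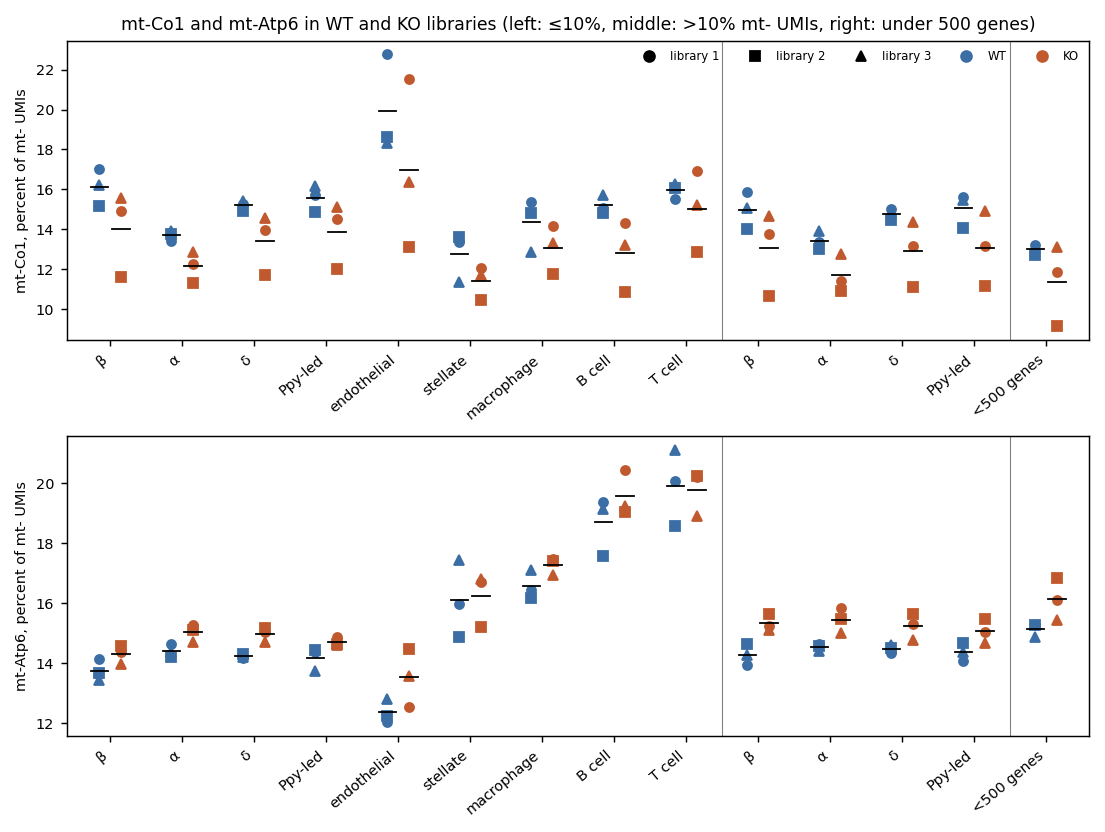
Shares of mt-Co1 (top) and mt-Atp6 (bottom) among mt- UMIs, in percent, in WT (blue) and KO (orange) libraries for each class at or under 10%, over 10% and for barcodes with fewer than 500 genes; bars are group means and the shape marks the library number. The vertical axes do not start at 0; KO library 2 (orange squares) is lowest for mt-Co1 in each class, and the KO mean lies below the WT mean in each.

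mt-Co2 was the member whose genotype values were separate in the most sets, 8 of 13. In β cell-like barcodes at or under 10% it held 14.2, 13.7 and 14.3% in WT and 14.6, 14.5 and 14.7% in KO, a difference of 0.55 percentage points (exact permutation p = 0.1). Over 10% the differences were 0.64 for mt-Co2, 1.05 for mt-Atp6 and 0.58 for mt-Co3, again without overlap. mt-Atp6 did not overlap in 7 of 13 sets. Shares sum to 100%, so a lower mt-Co1 share raises the others. With mt-Co1 left out of the denominator, 10 of 65 comparisons of the other members did not overlap. With mt-Co1 kept, the counts of 13 sets were 8 for mt-Co2, 7 for mt-Atp6, 1 each for mt-Co3 and mt-Cytb and 0 for mt-Atp8. The complex I mRNAs were not counted without mt-Co1. Without it, mt-Co3 and mt-Cytb in β cell-like barcodes at or under 10% were lower in KO, by 0.294 and 0.129 percentage points. The difference between bands in β cell-like barcodes was -1.18 for mt-Co1 in WT and -0.835 in KO, a genotype difference of 0.34 percentage points (exact permutation p = 0.1), and the other members gave exact p values of 0.3 to 1.

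As levels among all RNAs, none of the 6 mRNAs passed the test between genotypes. Counts were summed per library and fitted with edgeR across all genes, and all 6 passed the filter on low counts in every class. Of 9233 genes tested in β cell-like barcodes at or under 10%, 1 was called, or 0.0108%, and it was Ywhaz, whose KO counts are 0 there because cells with a Ywhaz UMI had been left out; 463 genes reached an unadjusted p under 0.05. The fit with a replicate block called 9 genes, none of them a member. None of the 6 members was called, and the smallest adjusted p among them was 0.886. mt-Co1 stood at 8526, 7371 and 7497 CPM in WT and 7143, 6429 and 7386 CPM in KO, and WT library 2 lay just within the KO range (log2 fold change -0.16, SE 0.123). mt-Co2 stood at 7120, 6671 and 6599 CPM in WT and 7006, 8032 and 6999 CPM in KO (log2 fold change 0.11, SE 0.118). mt-Atp6 stood at 7074, 6656 and 6205 CPM in WT and 6886, 8064 and 6639 CPM in KO (log2 fold change 0.12, SE 0.126).

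KO library 2 was highest for mt-Co2 and mt-Atp6 and lowest for mt-Co1 on this scale too. mt-Co3 and mt-Cytb gave log2 fold changes of 0.07 (SE 0.120) and 0.08 (SE 0.131). mt-Atp8, at 151, 120 and 121 CPM in WT and 195, 151 and 112 CPM in KO, gave 0.23 (SE 0.182). None of the members was separate between genotypes in either band, beside 11.2% of all genes tested at or under 10% and 12% over it. Over 10%, 7355 genes were tested and 0.0136% called, again only Ywhaz, and the members had log2 fold changes from -0.20 (mt-Co1, SE 0.176) to 0.14 (mt-Atp8, SE 0.127), with 441 genes at an unadjusted p under 0.05. The replicate block called 67 genes there, again without a member. In the other 8 classes at or under 10%, 0 of the 48 tests of members were called and none reached an unadjusted p under 0.05, with the lowest log2 fold change -0.41 for mt-Co1 in stellate-like and the highest 0.33 for mt-Cytb in T cell-like barcodes. Over all genes, 0% were called in 7 of these classes and 0.0202% in the Ppy-led one, where Ywhaz and Gstp1, a glutathione transferase outside the naming rule, were lower in KO. Members were separate between genotypes in 2 of the 48, mt-Co1 in stellate-like and mt-Cytb in T cell-like barcodes, beside 7.03% and 13.1% of all genes tested there, and none was in α (9.56% of all genes), δ (8.48%), Ppy-led (9.49%), endothelial (8.87%), macrophage (10.7%) and B cell-like barcodes (8.17%). DESeq2 called no member in β cell-like barcodes in either band.

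**Figure D5:**
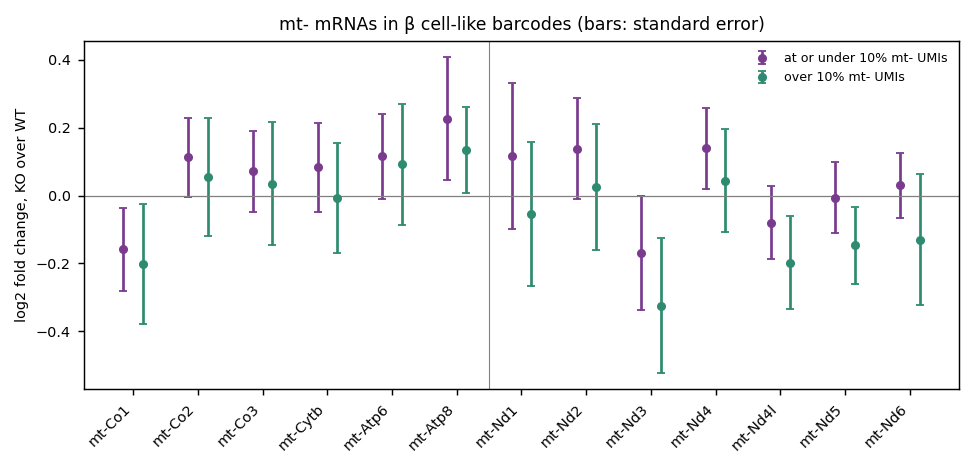
Log2 fold changes of KO over WT with standard errors (edgeR) in β cell-like barcodes, for the 6 members on the left and the 7 complex I mRNAs on the right, at or under 10% (purple) and over 10% mt- UMIs (green). mt-Co1 is the lowest member in both bands, at -0.16 and -0.20, and mt-Atp8 the highest, at 0.23 and 0.14.

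Nuclear partners of the members were read from the same fits. In β cell-like barcodes at or under 10%, log2 fold changes were above 0 for 9 of 9 nuclear complex III genes tested, from Uqcrc1, a core protein, at 0.01 to Uqcrb at 0.22, with a median of 0.11. They were above 0 for 12 of 13 complex IV genes tested of 15 listed, from Cox6a2 at -0.04 to Cox5a at 0.27, with a median of 0.18. Of 18 complex V genes 16 were above 0, from Atp5k at -0.13 to Atpif1, the inhibitor of ATP hydrolysis, at 0.35 (SE 0.115), with a median of 0.11. None of these genes was called. In the other 8 classes, 5 to 9 of 9 complex III genes, 9 of 12 to 12 of 12 complex IV genes and 11 to 17 of 18 complex V genes were above 0. Endothelial cell-like barcodes had 9 of 9, 11 of 12 and 17 of 18, with medians of 0.14, 0.14 and 0.21, and none was called. Ywhaz was below 0 in all 8 of these classes, from -0.05 in stellate-like to -1.54 in Ppy-led barcodes, and was called only in the latter. Its genotype values did not overlap in Ppy-led, δ, macrophage-like and T cell-like barcodes. These classes are therefore not free of a Ywhaz difference, whose source was not tested. In β cell-like barcodes the median of the 6 mitochondrial members was 0.10 and that of all genes 0.0026, and genotype values were separate for 0 of 9, 1 of 13 and 3 of 18 of the nuclear genes, beside 11.2% of all genes. The 7 mitochondrial complex I mRNAs were split, 4 above and 3 below 0, from mt-Nd3 at -0.17 to mt-Nd4 at 0.14.

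Genes that transcribe or look after mitochondrial RNA showed no common direction. Of 8 tested of 10 listed, 4 were above and 4 below 0, with a median of -0.0035, and none was called. Slirp, which stabilises mitochondrial mRNAs together with Lrpprc, was the highest at 0.23 and Tfb2m, a transcription initiation factor, the lowest at -0.10. Over 10%, 8 of 9 complex III, 13 of 13 complex IV and 17 of 18 complex V genes were above 0, with medians of 0.14, 0.26 and 0.18, and again none was called. Barcodes over 10% are other barcodes of the same libraries.

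Across 54 sums, those of 9 classes in 6 libraries, the summed level of the members was followed by the members themselves, which are parts of that sum, with Spearman's rho of 0.987 for mt-Co2, 0.969 for mt-Co3, 0.920 for mt-Cytb, 0.918 for mt-Atp6, 0.846 for mt-Co1 and 0.755 for mt-Atp8. Of the complex I mRNAs, mt-Nd4 was nearest at 0.821, above mt-Atp8, and mt-Nd6, the only one read from the other strand, was at -0.267. Among 9159 other genes the nearest were Prxl2a at 0.863, Dcaf11 at 0.851, Zim1 at 0.847, Nipsnap1 at 0.847 and Cspp1 at 0.845, each as log2(CPM + 1). The sums share libraries and classes, so these are descriptions of the pattern over classes only.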

How the data were processed

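Islet cells were profiled with 10x Chromium 3′ v3.1 kits. Per the submitters' processing notes the authors used Cell Ranger 6.0.2, Seurat and mm10, and the deposited matrices hold UMI counts per gene and barcode, not normalized. No column of sample values was left unused.

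Barcodes with under 500 genes were set aside, doublets were called with Scrublet in scanpy 1.11.5 at 0.8% per 1000 barcodes, since its automatic cut marked nearly none, and barcodes at or under 10% mt- UMIs were clustered (2000 variable genes, 30 components, 15 neighbours, Leiden resolution 1). Clusters were named by listed markers. Barcodes over 10% took the label held by at least 60% of their 15 nearest neighbours among the clustered barcodes. Unnamed clusters counted among these, and a barcode matched to them took no class. Shares were summed per class and library, for classes with at least 10 cells in every library, and tested with exact permutation tests. Levels were tested with edgeR 4.0.16 (quasi-likelihood, TMM, Benjamini-Hochberg over all genes detected in over 15% of the WT or of the KO cells), with a gene called where adjusted p was below 0.05 and the log2 fold change exceeded 0.1 in size, checked on simulated data, with DESeq2 1.42.0 as an alternative in R 4.3.3. Cells were never used as replicates.

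Depth was 74083947 to 98294915 UMIs per library. Same-numbered libraries deviated together in β cell-like sums (r = 0.537, 0.509 and 0.242). The values were lower in α (0.256, 0.170 and 0.0961) and δ cell-like sums (0.294, 0.227 and 0.140). The main tests of KO against WT did not pair libraries. The numbers were taken as pairs only in the replicate block and in the counts of same-numbered pairs. This pairing comes from the data and not from the labels. The 6 members, the listed respiratory chain and RNA upkeep genes, and the highest and lowest gene of each list were named, and for likeness the 5 nearest genes. Atp5pb and Usmg5 of the complex V list are not in the gene list. The members and lists were chosen with earlier results of these data known.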

Additional observations from a re-analysis of the deposited data

Results flagged for a closer look

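In δ cell-like barcodes the share of mt-Co2 moved in opposite directions with mt- content in the 2 genotypes. Over 10% minus at or under 10%, it was 0.002, 0.033 and 0.323 percentage points in WT and -0.300, -0.209 and -0.055 in KO, a mean of 0.119 against -0.188 and a difference of -0.307. The exact permutation test gave p = 0.1, the smallest that 3 against 3 libraries allow, so the difference did not pass. It was picked out because every WT library moved up and every KO library down. No other member in the 4 classes with both bands did so. KO minus WT values of the band difference were also without overlap, with the same p = 0.1 in the exact permutation test, for mt-Co3 (0.437) and mt-Cytb (-0.533) in δ cell-like barcodes and for mt-Co3 (0.809) in the Ppy-led class. mt-Co1 in β cell-like barcodes was the only other member with this p, and no complex I mRNA had it in these 4 classes. Values that do not differ by genotype reach this p at that same rate, so these are descriptions only. The δ class at or under 10% also carried more Ins2 than Sst, and the part of this in its values was not tested.

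Barcodes with fewer than 500 detected genes entered no test above, and the members were present in them. They numbered 1423, 195 and 517 in WT and 1172, 74 and 104 in KO, with 25.0 to 51.4% mt- UMIs, and the 6 mRNAs held 73.5 to 75.6% of these, a mean of 74.6%, above the limit that a count of 0 allows. mt-Co1 held 13.2, 12.7 and 13.1% in WT and 11.9, 9.12 and 13.1% in KO, so KO library 2 was lowest here as well. mt-Atp6 was higher in KO without overlap, by 0.995 percentage points, and mt-Co2 by 0.466. The other members overlapped between genotypes, as did every complex I mRNA, and no test was run on these barcodes.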

How the results depend on the processing

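No member was called in β cell-like barcodes by DESeq2, with the replicate block, with totals that exclude mt- genes or with 1 library left out, in either band, nor at or under 10% without the filter, with all KO cells, without doublet calls or with mt- limits of 5% and 20%. None was called in the other classes with the block or with totals that exclude mt- genes. Over all genes, calls at or under 10% went from 1 to 7 with DESeq2, 9 with the replicate block and 11 without the filter, and over 10% from 1 to 15 with DESeq2 and 67 with the block. In the other classes the block moved calls from 0 or 2 to at most 19 and changed no call of a member. The count of 22 shares without overlap between genotypes became 39 of 78 with the replicate block, counted as all 3 pairs moving the same way (an exact permutation test over 3 pairs cannot go below p = 0.25), 10 of 65 with mt-Co1 left out of the denominator, and 24 to 36 with 1 library left out, the last without KO library 3, where fewer values make overlap rarer. The 65 do not include mt-Co1, which gave 5 of the 22. In β cell-like barcodes, the single member whose band difference was separate between genotypes, mt-Co1, became 0 without doublet calls and with both bands clustered together. It became 1 to 2 with 1 library left out, the last without KO library 1. With mt-Co1 left out of the denominator mt-Co1 itself was not tested, and none of the other members was separate. The class comparisons that passed became 0 to 0 of 48 with 1 library left out, because 5 libraries cannot reach the threshold. Of those that passed, 26 of 30 tested did so as a mean over cells, 30 of 33 without doublet calls, 23 of 24 with at least 5000 UMIs and 26 of 29 with mt-Co1 left out. mt-Atp6 in endothelial cell-like barcodes was lost under the last 3 of these. In α and δ cell-like barcodes mt-Atp6 was lost with mt-Co1 left out, and in δ also as a mean over cells. mt-Cytb in the Ppy-led class turned from 0.301 to -0.0845 percentage points as a mean over cells. The 10 band differences of 24 with 1 sign in every library became 10 to 18 with 1 library left out, 9 as a mean over cells, 8 with at least 5000 UMIs and 5 of 20 with mt-Co1 left out. The 20 do not include mt-Co1, which had 1 sign in every library in each of these classes.

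In β cell-like barcodes at or under 10%, the KO minus WT share turned for mt-Co3 to -0.0314 as a mean over cells and to -0.294 without mt-Co1, and for mt-Cytb to -0.129 without mt-Co1; over 10% that of mt-Cytb turned to 0.0544 as a mean over cells and 0.0450 with all KO cells. The cause was not tested beyond how each alternative is built. With 1 library left out the share ranged at or under 10% from -0.0027 to 0.385 for mt-Co3, -0.123 to 0.479 for mt-Cytb and -0.0155 to 0.0704 for mt-Atp8, and over 10% from -0.275 to 0.332 for mt-Cytb and -0.0114 to 0.0527 for mt-Atp8. Log2 fold changes ranged from -0.034 to 0.16 for mt-Cytb at or under 10%, and over 10% from -0.041 to 0.16 for mt-Co2, -0.067 to 0.14 for mt-Co3, -0.078 to 0.082 for mt-Cytb, -0.013 to 0.22 for mt-Atp6 and -0.0061 to 0.25 for mt-Atp8. mt-Co1 kept its sign in β cell-like barcodes in each alternative. Barcodes with at least 5000 UMIs left 36 class comparisons, the mean over cells 42, and some classes gave no value over 20% or when both bands were clustered together. Depth limits the mt-Atp8 shares of the T and B cell-like classes, whose smallest libraries held 1744 and 3091 mt- UMIs.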
